A study of Mus musculus with 17 samples.

Results

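Primary lung fibroblast cultures from 17 mice were examined for genes whose difference between bleomycin and PBS was not the same in mice with and without deletion of Ephb4, a receptor tyrosine kinase that binds ephrin-B ligands. The quantity described for each gene is the interaction value, the difference between Ephb4-CKO and Ephb4 control mice after bleomycin minus the same difference after PBS, on the log2 scale of CPM, a count scaled to its library's total. A positive value means that bleomycin went with a higher level, relative to PBS, in Ephb4-CKO than in Ephb4 control cultures, and a negative value means the opposite. Of 55421 genes in the deposited count matrix, the 10481 with more than 10 CPM in 2 or more libraries were kept. No gene had an interaction value that passed the test after adjustment, so the results below are sizes and positions of gene families and not calls.

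All mice carried Ephb4 f/f and Col1a2-CreERT2 on a C57BL/6J background, in which Cre recombinase is driven by the promoter of a type I collagen gene that fibroblasts express. Ephb4-CKO mice received 1 mg of 4-hydroxytamoxifen a day for 5 days at 4 weeks of age and Ephb4 control mice received corn oil, so the deletion could not be told apart from the drug that induced it. At 6 weeks of age the mice were given 1.2 U/kg bleomycin or PBS into the trachea, lungs were taken on day 14, and the cells that grew out were passaged once before RNA was collected. The groups were 4 Ephb4 control PBS, 4 Ephb4 control bleomycin, 5 Ephb4-CKO PBS and 4 Ephb4-CKO bleomycin mice, with 1 library for each mouse.

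Bleomycin injures the alveolar epithelium and is the standard way to induce lung fibrosis in mice. During repair, fibroblasts become myofibroblasts, which contain smooth muscle actin filaments and secrete procollagens that are cut outside the cell by proteinases, assembled into fibrils and crosslinked by lysyl oxidases. Alveolar macrophages clear surfactant from the airspace and depend on CSF2 and PPAR-gamma, whereas macrophages in general depend on CSF1 and carry Fc receptors and leukocyte integrins.

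Libraries held between 66540022 and 120554468 estimated counts. Although the cultures were labelled as fibroblasts, most libraries had low levels of fibroblast markers and high levels of macrophage markers. The summed level of 12 kept fibroblast markers of 14 listed lay between 7774 and 15657 CPM in the Ephb4 control bleomycin libraries, between 66.1 and 9645 CPM after PBS in the Ephb4 control mice, between 143 and 2815 CPM in Ephb4-CKO PBS libraries and between 123 and 2763 CPM in Ephb4-CKO bleomycin libraries. The 19 macrophage markers summed to between 1461 and 22388 CPM in the Ephb4 control bleomycin libraries, against 11153 to 48046 CPM after PBS in the same genotype, 25447 to 47057 CPM in Ephb4-CKO PBS and 25035 to 45979 CPM in Ephb4-CKO bleomycin libraries. Smooth muscle markers, with 7 of 8 kept, reached 2970 to 4088 CPM in the Ephb4 control bleomycin libraries and at most 2000 CPM elsewhere. Endothelial markers stayed at or below 370 CPM and epithelial markers at or below 2589 CPM, mesothelial markers kept 3 of 7 genes and reached at most 1005 CPM, and none of the 10 lymphocyte markers was kept. Neutrophil markers, with 4 of 8 kept, reached 9705 CPM in Ephb4-CKO PBS mouse 1 and at most 153 CPM in the groups other than Ephb4-CKO PBS. Most families at the ends of the order below moved with these markers of fibroblasts and macrophages. The alveolar macrophage signature was lowest of its group where the macrophage markers were lowest, except after PBS in Ephb4-CKO mice. There mouse 5 had the lowest signature and the highest markers. Surfactant genes were highest of their group in Ephb4 control bleomycin mouse 1, where macrophage markers were lowest. In each group they were lowest in the same library as the epithelial markers. In such bulk cultures fewer cells of a type and less RNA per cell cannot be told apart.

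Libraries of 3 mice, all given bleomycin, went against their sex label by Xist and Y-linked transcripts (the library labelled Ephb4 control bleomycin 2 and those labelled Ephb4-CKO bleomycin 1 and 2). Values without these 3 libraries stand beside Ephb4 and the 10 lists at the ends of the order below. All 4 Ephb4 control bleomycin mice had identification numbers beginning with 12, as did 1 Ephb4 control PBS, 2 Ephb4-CKO PBS and 2 Ephb4-CKO bleomycin mice, and the other mice had numbers beginning with 11. Values within series 12 alone therefore rest on 1 Ephb4 control PBS library and, in the Ephb4-CKO bleomycin group, on mice 1 and 2 only, both against their sex label. A fit of all 17 libraries with the number series as an added term was also made.

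Ephb4 itself was measured first. In Ephb4 control mice its level was 24.5, 4.06, 33.9 and 2.35 CPM after PBS and 66, 13.3, 35.8 and 41 CPM after bleomycin. In Ephb4-CKO mice it was 7.81, 23.9, 9.09, 4.06 and 4.1 CPM after PBS and 14.2, 9.66, 10.3 and 5 CPM after bleomycin. The genotypes overlapped after PBS. After bleomycin they overlapped only in the libraries labelled Ephb4 control bleomycin 2 (13.3 CPM) and Ephb4-CKO bleomycin 1 (14.2 CPM), both against their sex label. Without the 3 libraries against their sex label, Ephb4 control bleomycin libraries were at 35.8 to 66 CPM and Ephb4-CKO bleomycin libraries at 5 and 10.3 CPM. The difference between genotypes was -0.28 ± 1.06 (log2, standard error, n = 5 and 4) after PBS and -1.88 ± 0.58 (n = 4 and 4) after bleomycin. The interaction value of Ephb4 (ENSMUSG00000029710, chr5:137350109-137378669, + strand, GRCm38) was -1.60 ± 1.20, and -2.44 without the 3 libraries. A count over the whole gene does not show whether the floxed exons were lost.

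The 5 kept members of 8 EphB receptors and ephrin-B ligands all had negative interaction values, with a median of -1.80. Beside Ephb4 these were the receptors Ephb2 (-2.49 ± 2.60) and Ephb3 (-2.08 ± 1.66) and the ligands Efnb2 (-1.80 ± 1.52) and Efnb1 (-1.70 ± 1.10). The 4 kept EphA receptors and ephrin-A ligands had a median of -0.48. For comparison, 49.9% of all kept genes had an interaction value below 0 and 50.1% had one above 0.

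Over all 10481 genes, the quasi-likelihood test of edgeR, adjusted by Benjamini-Hochberg over all kept genes, called 0 genes higher and 0 genes lower (0% of those tested in each direction), and no adjusted p was under 0.916. Without adjustment, p was under 0.05 for 198 genes (1.89%) with a positive and 165 genes (1.57%) with a negative interaction. Leaving out Ephb4 control PBS mouse 3 brought these numbers to 502 and 742. DESeq2, limma voom, limma voom with sample weights and limma-trend also called 0 genes at an adjusted p under 0.05, and at an unadjusted p under 0.05 they gave 288, 120, 199 and 128 positive and 257, 180, 238 and 258 negative genes. The spread between mice of 1 group was wide, with a common biological coefficient of variation of 0.557.

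The interaction values had a median of 0.00 and a standard deviation of 1.03 over genes, from -7.71 to 7.08. Large values lay mostly on the negative side, with 566 genes under -2 and 100 above 2. On the scale fitted by edgeR, which compares means of counts and not of their logarithms, these numbers were 188 and 92. The median standard error was 0.41 over all genes and 1.95 among the genes beyond 2 in either direction.

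The 4 simple comparisons behind the interaction were unequal in size. Each called 0 genes (0%) by edgeR at an adjusted p under 0.05, in a fit without a batch term. The study used DESeq2 with batch as a covariate. It reported differentially expressed genes for bleomycin in Ephb4 control mice and for the genotypes after bleomycin, but not for the genotypes after PBS. Here these comparisons were fitted by edgeR only. The smallest adjusted p was 0.118 for bleomycin against PBS in Ephb4 control mice, 1 for bleomycin against PBS in Ephb4-CKO mice, 1 for the genotypes after PBS and 0.187 for the genotypes after bleomycin. In Ephb4 control mice 658 genes were higher and 836 lower after bleomycin at an unadjusted p under 0.05, against 26 and 75 in Ephb4-CKO mice. Between genotypes, 150 genes were higher and 59 lower in Ephb4-CKO cultures after PBS, against 1157 and 962 after bleomycin. The standard deviation over genes of the bleomycin difference was 1.13 in Ephb4 control and 0.39 in Ephb4-CKO mice. These differences, which share no library, had a Pearson correlation of 0.42 across 10481 genes, which are not independent replicates.

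Positions of single libraries showed the same inequality without a model. Every bleomycin library lay above every PBS library for 599 genes (5.72%) in Ephb4 control mice and for 8 genes (0.0763%) in Ephb4-CKO mice. Every bleomycin library lay below every PBS library for 335 genes (3.2%) and for 1 gene (0.00954%). Ephb4-CKO PBS mice numbered 5, and with each left out in turn the number separated in either direction was between 20 and 135, the highest without Ephb4-CKO PBS mouse 3, against 934 in the Ephb4 control mice. The 9 genes separated in Ephb4-CKO mice, named after their values were seen, were C87436, Gm24119, Magoh, Med27, Mtfr1l, Pink1, Ppp1cc and Tmem141 above and Pptc7 below. Some of the gaps were narrow. Pink1, a kinase that marks damaged mitochondria, lay between 29.5 and 40.9 CPM after bleomycin and between 22 and 29.4 CPM after PBS. Med27 lay between 10.1 and 11 CPM after bleomycin and between 8.1 and 10.1 CPM after PBS. No gene was separated in opposite directions in the 2 genotypes, in either direction of crossing (0% each).

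The Ephb4 control bleomycin libraries stood apart from the other 13. They lay above every other library for 275 genes (2.62%) and below every other library for 92 genes (0.878%), whereas for each of the other 3 groups both numbers were 0 (0%). All 275 genes had a negative and all 92 a positive interaction value. They were picked by the level of a group that enters the contrast, so the shared signs are no independent support. The widest gap on the upper side, as the ratio of the lowest Ephb4 control bleomycin library to the highest other library, was 3.89 for Col11a1. Among the other genes apart on the upper side, named after their values were seen, were Ncam1, a cell adhesion molecule (47.4 to 161 CPM against 0 to 21.9 CPM), Fbln2, an extracellular matrix fibulin (990 to 1447 CPM against 0.294 to 512 CPM), and Akap12, a scaffold for protein kinase A (246 to 277 CPM against 5.04 to 139 CPM). On the lower side the widest gaps were those of Lpl, the lipase that releases fatty acids from lipoproteins (36.6 to 220 CPM against 357 to 2526 CPM), Cd36, a fatty acid and scavenger receptor (24.1 to 326 CPM against 483 to 3452 CPM), and Rin2, an activator of Rab5 (36 to 60.8 CPM against 89.4 to 233 CPM). The cytokine genes Ccl3 (14.7 to 24.6 CPM against 33.7 to 1216 CPM) and Tnf (4.94 to 6.85 CPM against 8.25 to 316 CPM) had narrower gaps.

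Of 63 gene lists, 62 had at least 4 kept members and were ordered by their median interaction value. Some genes are in more than 1 list, so the lists are not independent. Medians were under -1 for 21 lists and above 1 for 5, and 23 lay within 0.5 of 0. All 21 and all 5 kept their sign on the edgeR scale, and 3 lists of the 62 had another sign there. Where the bleomycin difference of each list in Ephb4-CKO mice is set against that in Ephb4 control mice, lists at both ends lay far from 0 in Ephb4 control mice and near 0 in Ephb4-CKO mice.

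**Figure D1:**
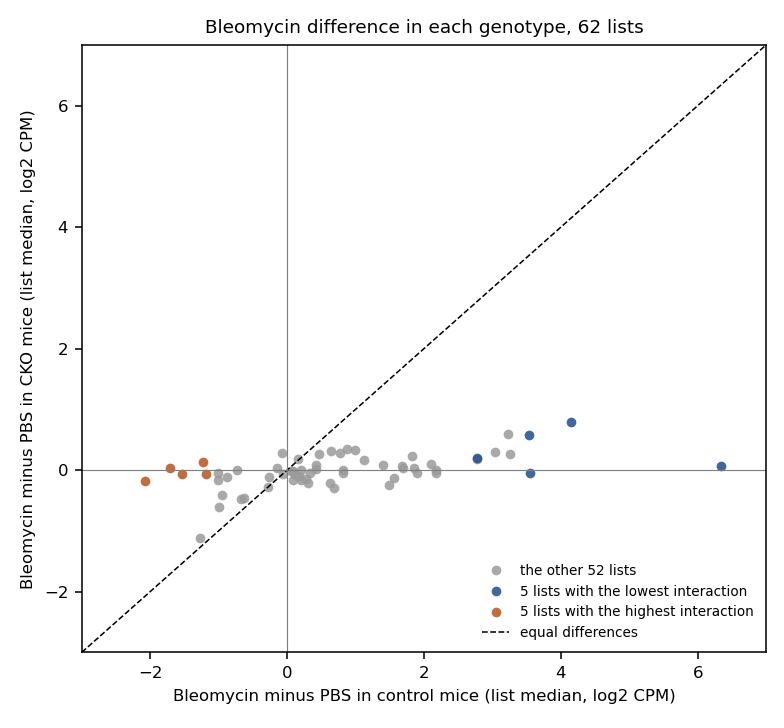
Each point is 1 of 62 gene lists, with the median difference between bleomycin and PBS (log2 CPM) in Ephb4 control mice on the x axis and in Ephb4-CKO mice on the y axis, and the dashed line marks equal differences. Fibrillar collagen chains lie farthest right at 6.34 on the x axis and 0.06 on the y axis, and alveolar macrophage signature genes lie at -2.07 and -0.18.

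**Figure D2:**
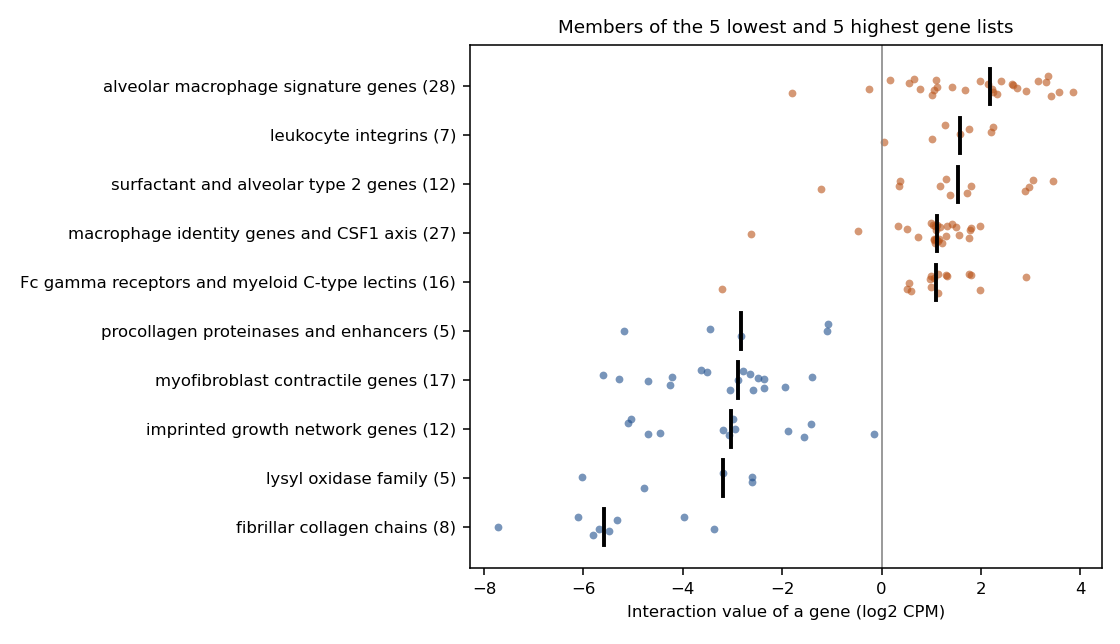
Interaction values (log2 CPM) of the kept members of the 5 lists with the lowest medians (blue) and the 5 with the highest medians (orange), with 1 point for each gene and a black bar at each median. All members of the 5 lowest lists lie below 0, and the highest lists have medians between 1.09 and 2.18 with a few members below 0.

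The lowest list was the fibrillar collagen chains, the subunits of the collagens that form banded fibrils, with 8 of 11 kept and a median of -5.59 (-2.58 on the edgeR scale). All 8 members were below 0. In the Ephb4 control bleomycin mice 4 lay above every other library, as did 2.62% of all kept genes, and 0 of the 8 had an unadjusted p under 0.05. Their median difference between bleomycin and PBS was 6.34 in Ephb4 control and 0.06 in Ephb4-CKO mice, and between genotypes it was 0.39 after PBS and -5.51 after bleomycin. Without the 3 libraries against their sex label the median interaction was -7.55. Within number series 12 alone it was -2.73, and with the fibroblast marker level as a covariate it was -1.10. Of these 8 genes, Col1a1, Col1a2 and Col3a1 are also in the list of fibroblast markers.

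Col11a1 (ENSMUSG00000027966, chr3:114030540-114220718, + strand), a chain of the minor fibrillar collagen that nucleates thin fibrils, had the lowest interaction value of all genes kept, -7.71 ± 3.10 (-4.09 on the edgeR scale). Its level in Ephb4 control mice was 5.04, 0.0456, 9.09 and 0 CPM after PBS and 55.2, 38.4, 155 and 263 CPM after bleomycin. In Ephb4-CKO mice it was 1.21, 0.774, 4.25, 0.145 and 0.0502 CPM after PBS and 0.722, 9.87, 0.374 and 0 CPM after bleomycin. The lowest Ephb4 control bleomycin library was above every other library, and the Ephb4-CKO groups overlapped.

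Col1a1 (chr11:94936224-94953042, + strand), the major chain of type I collagen, had a value of -6.11 ± 3.05 (-2.19 on the edgeR scale). It was at 35.4, 1.9, 873 and 0.365 CPM in Ephb4 control mice after PBS and at 1535, 2269, 661 and 1285 CPM after bleomycin. Ephb4-CKO cultures were at 2.98, 29.9, 151, 2.49 and 14.2 CPM after PBS and at 41.7, 159, 19.1 and 1.56 CPM after bleomycin. Ephb4 control PBS mouse 3 was above 1 of the Ephb4 control bleomycin libraries, and every Ephb4-CKO library was at or below 159 CPM. Col5a2, a chain of type V collagen, had a value of -5.81 ± 2.67, with 1591 to 2323 CPM in the Ephb4 control bleomycin libraries and 2.64 to 1547 CPM in the other 13. Col1a2, whose promoter drives the Cre, lay between 1773 and 3732 CPM in the Ephb4 control bleomycin libraries and between 1.92 and 473 CPM in the Ephb4-CKO bleomycin libraries.

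The 300 bases around the annotated start of 3 leading genes are shown because their families stood at opposite ends of the order. The windows run from 250 bases before to 50 bases after the start in RefSeq (GRCm38.p6), 5′ to 3′ on the gene's strand, and capitals mark a CCAAT box on either strand. The first is from the lowest list, at chr3:114030290-114030589 (+ strand), and the others are from the highest list, at chr14:43819590-43819889 (- strand) and chr7:43351091-43351390 (+ strand). The Ear1 window lies at the RefSeq start, inside the counted gene, whose span reaches further upstream to position 43875517.
Col11a1: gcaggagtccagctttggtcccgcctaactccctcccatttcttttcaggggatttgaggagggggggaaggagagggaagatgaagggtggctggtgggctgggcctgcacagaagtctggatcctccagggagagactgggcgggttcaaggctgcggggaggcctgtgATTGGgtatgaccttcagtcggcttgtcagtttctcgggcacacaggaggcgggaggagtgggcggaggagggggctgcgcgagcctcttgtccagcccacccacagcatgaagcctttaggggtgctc
Ear1: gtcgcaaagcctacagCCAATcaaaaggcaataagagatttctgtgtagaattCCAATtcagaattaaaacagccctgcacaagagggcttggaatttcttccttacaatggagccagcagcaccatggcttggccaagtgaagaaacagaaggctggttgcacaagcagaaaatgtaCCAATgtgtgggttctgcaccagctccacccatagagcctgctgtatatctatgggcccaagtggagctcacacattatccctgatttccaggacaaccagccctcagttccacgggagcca
Siglecf: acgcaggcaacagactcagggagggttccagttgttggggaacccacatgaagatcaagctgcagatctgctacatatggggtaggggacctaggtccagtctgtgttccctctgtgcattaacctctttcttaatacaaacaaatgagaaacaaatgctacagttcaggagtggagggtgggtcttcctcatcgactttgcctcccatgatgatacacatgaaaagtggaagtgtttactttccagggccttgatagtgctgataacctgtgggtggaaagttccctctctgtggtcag

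The TATA box, ETS, TEAD, AP-1 and CCAAT motifs were searched on both strands, none of which contains another. Promoters were found for 6 of the 8 fibrillar collagen genes and 20 of the 28 alveolar macrophage signature genes. The CCAAT box, spelled as its name, was in 3 of the 6 and 12 of the 20, against 37.4% of all 32851 promoters of the same length. The TATA box, searched as TATAAA, was in 1 of 6 and 6 of 20 (13.6% of all promoters). The TEAD motif, searched as GGAATG, was in 1 of 6 and 1 of 20 (14.7% of all). The AP-1 motif, searched as TGANTCA, was in 0 of 6 and 3 of 20 (7.81% of all), and the ETS motif, searched as GAGGAAGT, in none of either (3.2% of all). Such a match describes the letters only.

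The lysyl oxidase family, which crosslinks collagen and elastin, had all 5 members kept and below 0, with a median of -3.19 (-2.10 on the edgeR scale). The median difference between bleomycin and PBS was 3.55 in Ephb4 control and -0.04 in Ephb4-CKO mice. Loxl2 (chr14:69609068-69695834, + strand) had a value of -6.02 ± 2.65. It was at 150, 2.98, 203 and 0.497 CPM in Ephb4 control mice after PBS and at 346, 394, 262 and 366 CPM after bleomycin, and at 52.8, 154, 75.5, 4.15 and 6.94 CPM in Ephb4-CKO mice after PBS and 20.5, 44.4, 12 and 0.881 CPM after bleomycin. Every Ephb4 control bleomycin library was above all others, and the difference between bleomycin and PBS in Ephb4-CKO mice was -1.50 ± 1.58. Loxl1 (-4.79 ± 2.75) and Lox (-3.19 ± 1.29) overlapped between groups. The median of the family was -4.25 without the 3 libraries against their sex label, -0.45 within series 12 and -1.14 with the fibroblast marker covariate.

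Procollagen proteinases and enhancers, which trim the ends of procollagen so that fibrils can form, kept 5 of 8 members, all below 0, with a median of -2.83 (-1.20 on the edgeR scale). The largest values with a mean of at least 10 CPM belonged to Pcolce, which enhances the C-proteinase (-3.45 ± 2.16), Bmp1, the C-proteinase itself (-2.83 ± 1.84), and Adamts2, an N-proteinase (-1.07 ± 1.24). Pcolce lay between 92 and 134 CPM in the Ephb4 control bleomycin libraries and between 0.507 and 90.7 CPM in the others. The highest of the others was Ephb4-CKO bleomycin mouse 2, whose library went against its sex label. The median of the family was -1.64 without Ephb4 control PBS mouse 4, -3.58 without the 3 libraries, -0.87 within series 12, and 0.15, on the other side of 0, with the fibroblast marker covariate.

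Myofibroblast contractile genes kept 17 of 18 members, all below 0, with a median of -2.88 (-1.58 on the edgeR scale). Of these, 7 lay above every other library in the Ephb4 control bleomycin mice (2.62% of all kept genes did) and 0 had an unadjusted p under 0.05. The median difference between bleomycin and PBS was 4.15 in Ephb4 control and 0.80 in Ephb4-CKO mice, and the genotypes differed by -0.02 after PBS and -3.11 after bleomycin. Acta2 (chr19:34241090-34255590, - strand), the smooth muscle actin that defines myofibroblasts, had a value of -5.29 ± 2.58 but -1.32 on the edgeR scale. In Ephb4 control mice it was at 161, 1.77, 451 and 5.5 CPM after PBS and at 2410, 2011, 2272 and 2501 CPM after bleomycin. Ephb4-CKO libraries held 19.3, 179, 57.6, 14.4 and 56.5 CPM after PBS and 241, 1286, 16.2 and 11.8 CPM after bleomycin. The Ephb4 control bleomycin libraries lay closely together above all others, and Ephb4-CKO bleomycin libraries ran from 11.8 to 1286 CPM. Cnn1, which binds actin and slows myosin, had a value of -5.60 ± 2.73, and Tagln, an actin-bundling protein of smooth muscle, had one of -4.26 ± 2.11. Without the 3 libraries the median was -4.39, within series 12 it was -0.36, and with the fibroblast marker covariate it was -0.71.

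The imprinted growth network holds genes that are high in growing tissues and expressed from 1 parental copy in at least some tissues. It kept 12 of 21 members, all below 0, with a median of -3.03 (-1.05 on the edgeR scale). The noncoding transcript Rian had a value of -5.10 ± 2.93, with 127, 9.01, 95.4 and 145 CPM in the Ephb4 control bleomycin libraries and 0.0406 to 61.3 CPM in the others. The lowest library in that group, mouse 2, went against its sex label. Peg3, a zinc finger protein, had a value of -3.20 ± 2.15 and overlapped between groups at 30.9 to 55 CPM against 0.447 to 43.1 CPM. Dcn, a proteoglycan that binds collagen fibrils and also a fibroblast marker, had a value of -4.45 ± 2.32. Its highest level, 780 CPM, was in Ephb4-CKO PBS mouse 1. The median was -4.69 without the 3 libraries, -1.26 within series 12 and -0.22 with the fibroblast marker covariate.

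**Figure D3:**
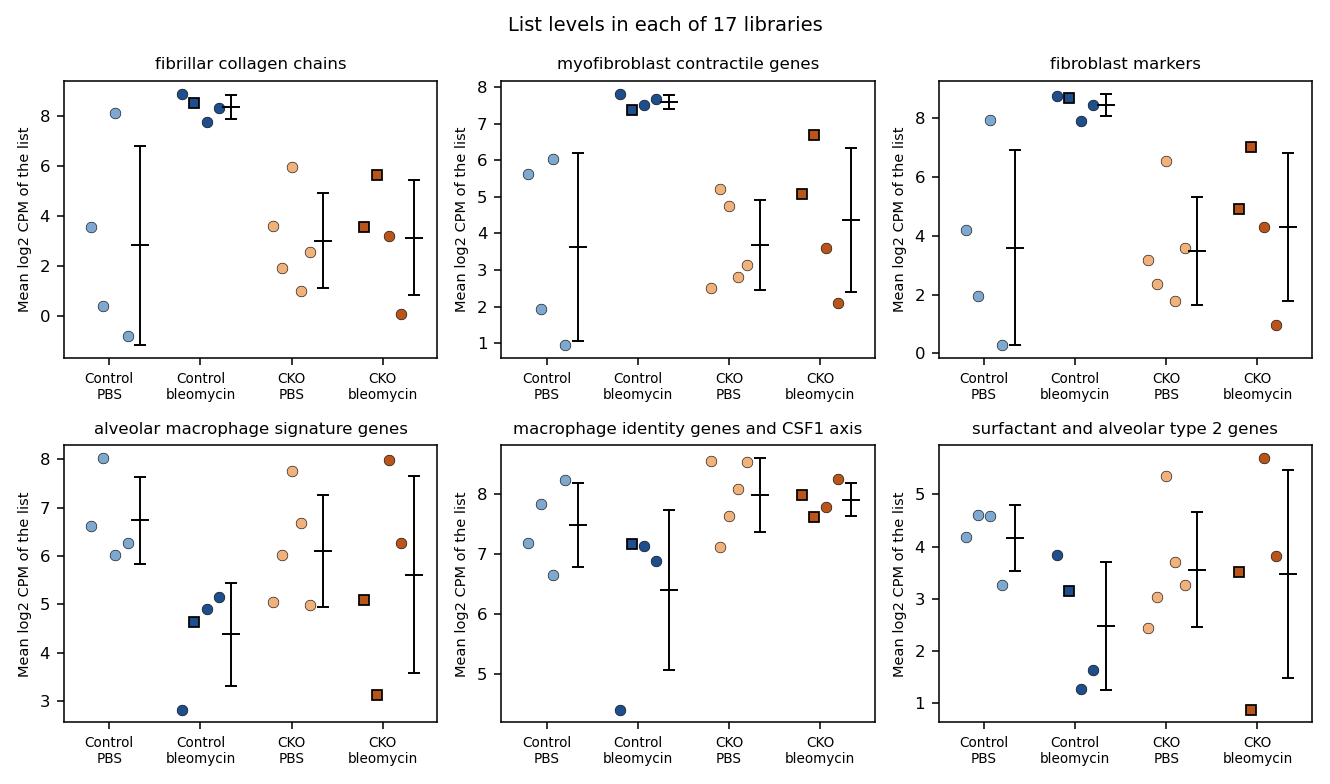
Mean log2 CPM over the kept members of 6 gene lists in each of 17 libraries by group, with bars for the group mean ± SD and squares for the 3 libraries that went against their sex label. Fibrillar collagens lie at 8.36 ± 0.47 in Ephb4 control bleomycin libraries and at 2.82 ± 3.99, 3.01 ± 1.90 and 3.12 ± 2.29 in the Ephb4 control PBS, Ephb4-CKO PBS and Ephb4-CKO bleomycin libraries.

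Lists of procollagen modification, tRNA charging and amino acid synthesis lay on the same side with smaller values. Procollagen hydroxylases and folding helpers had a median of -2.04, with 15 of 16 members below 0 and 3 at an unadjusted p under 0.05 on the lower side, where 1.57% of all genes stood. These were P3h1, a prolyl 3-hydroxylase (61.5 to 115 CPM in the Ephb4 control bleomycin libraries and 9.27 to 50.8 CPM in the others), P4ha1, the catalytic subunit of prolyl 4-hydroxylase (-1.28 ± 0.60), and Crtap, the partner of P3h1 (-0.98 ± 0.44). Errors were 0.13 to 0.43 for the genes of tRNA charging and 0.28 to 1.87 for those of the ATF4 response and amino acid synthesis. A link to the matrix genes was not tested. The 22 cytosolic aminoacyl-tRNA synthetases, which charge tRNAs, had a median of -0.35 with 18 below 0, where the lower quartile of all kept genes was -0.32. At an unadjusted p under 0.05 stood 4 of them (Aars, Nars, Kars and Tars). For 9 of them the Ephb4 control bleomycin libraries lay above every other library, as for 2.62% of all kept genes. Aars, the alanyl-tRNA synthetase, lay between 269 and 341 CPM in those libraries and between 148 and 210 CPM in the other 13 (-0.60 ± 0.16). The 23 genes of the ATF4 stress response and serine-glycine synthesis had a median of -0.77 with 17 below 0 and 5 at an unadjusted p under 0.05. The Ephb4 control bleomycin libraries lay above all others for 7 of them, against the same 2.62% of all kept genes. Psat1, which makes phosphoserine, lay at 156 to 258 CPM against 28.4 to 113 CPM (-1.43 ± 0.54), and Atf5, a transcription factor of that response, at 41.9 to 62 CPM against 10.9 to 26.6 CPM (-1.29 ± 0.41). Of the 23 genes 6 were above 0, among them Atf3 (1.33 ± 1.05), Slc7a11 (1.12 ± 1.04) and Atf4 itself (0.03 ± 0.28). Cytosolic ribosomal protein genes (median 0.05, 86 genes), proteasome subunits (0.02, 44 genes) and nuclear-encoded subunits of oxidative phosphorylation (0.16, 76 genes) lay nearer 0.

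The highest list was the alveolar macrophage signature, with 28 members kept, 26 above 0 and a median of 2.18 (2.02 on the edgeR scale). At an unadjusted p under 0.05 stood 5 members (Ear1, Fabp4, Krt79, Lpl and Marco), where 1.89% of all genes stood on the higher side. The median difference between bleomycin and PBS was -2.07 in Ephb4 control and -0.18 in Ephb4-CKO mice. Between genotypes it was -0.60 after PBS and 1.34 after bleomycin. In Ephb4 control mice 9 of the 28 were lower in every bleomycin library than in every PBS library, against 3.2% of all kept genes. In Ephb4-CKO mice 0 were, against 0.00954% of all kept genes. The median was 2.97 without the 3 libraries against their sex label, 1.26 within series 12, 1.38 with the macrophage marker level as a covariate and 1.13 without Ephb4 control bleomycin mouse 1.

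Ear1 (chr14:43818765-43875517, - strand), an eosinophil-associated ribonuclease with near-identical neighbours among which reads may be split, had a value of 3.86 ± 2.88 (5.37 on the edgeR scale). In Ephb4 control mice it was at 26.3, 330, 58.4 and 44.3 CPM after PBS and at 3.26, 2.21, 4.17 and 4.04 CPM after bleomycin. The Ephb4-CKO libraries were at 0.321, 22.3, 531, 44.7 and 15.3 CPM after PBS and at 8.72, 0.361, 578 and 18.2 CPM after bleomycin. The Ephb4 control groups did not overlap, whereas both Ephb4-CKO groups ran from under 1 CPM to over 500 CPM.

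Marco (chr1:120474538-120505024, - strand), a scavenger receptor of alveolar macrophages and also 1 of the macrophage markers, had a value of 3.31 ± 2.10 (5.15 on the edgeR scale). It was at 421, 2326, 183 and 738 CPM in Ephb4 control mice after PBS and at 4.67, 15.8, 17.8 and 44.5 CPM after bleomycin. In Ephb4-CKO mice it was at 101, 267, 849, 497 and 246 CPM after PBS and at 24, 4.52, 739 and 486 CPM after bleomycin. The 2 low Ephb4-CKO bleomycin libraries, mice 1 and 2, were those that went against their sex label. Krt79, a keratin of alveolar macrophages in mice, had a value of 3.57 ± 2.78, but of -1.16 within series 12. Siglecf, a sialic acid receptor, had a value of 3.41 ± 2.14, and in the Ephb4 control bleomycin group mouse 1 was at 1.01 CPM and the others between 60.1 and 104 CPM.

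Leukocyte integrins kept 7 of 8 members, all above 0, with a median of 1.57 (0.91 on the edgeR scale), and 0 had an unadjusted p under 0.05. Itgax, the CD11c chain, had a value of 2.24 ± 1.43 and Itga4, a chain of VLA-4, one of 1.75 ± 0.99. Itgax is also in the alveolar macrophage signature. Itgad, a neighbour and paralog of Itgax, had a value of 2.20 ± 1.43 and its levels followed those of Itgax, so reads may be split between them. Itgax was at 13.7 CPM in Ephb4 control bleomycin mouse 1 and at 263 to 2048 CPM in the other 16 libraries. The median without that mouse was 0.84, and without the 3 libraries against their sex label it was 1.94.

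Macrophage identity genes and the CSF1 axis kept 27 of 28 members, 25 above 0, with a median of 1.12 (0.80 on the edgeR scale). Cybb, the catalytic subunit of the phagocyte NADPH oxidase, had a value of 1.99 ± 1.04. It was the 1 member of the 27 at an unadjusted p under 0.05, where 1.89% of all kept genes stood on the higher side. It was between 539 and 3443 CPM in Ephb4 control mice after PBS and at 89.5, 556, 727 and 582 CPM after bleomycin, and between 1162 and 4193 CPM in Ephb4-CKO mice after PBS and 1361, 1398, 1962 and 3264 CPM after bleomycin. The Ephb4 control groups overlapped by 1 PBS library, and the Ephb4-CKO groups overlapped widely. Lyz2, the lysozyme of macrophages, had a value of 1.76 ± 1.20, and its near-identical neighbour Lyz1 had one of 1.80 ± 1.23. The members below 0 were the growth factors Csf1 (-2.62) and Csf2 (-0.48), the former made by fibroblasts among other cells. Without Ephb4 control bleomycin mouse 1 the median was 0.42, and without the 3 libraries against their sex label it was 1.52. With the macrophage marker covariate it was 0.23. Many members, among them Lyz2, Cd68 and Csf1r, are also macrophage markers, so that fall follows in part from the shared genes. Csf2ra and Csf2rb are also in the alveolar macrophage signature.

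Fc gamma receptors and myeloid C-type lectins kept 16 of 20 members, 15 above 0, with a median of 1.09 (0.78 on the edgeR scale). Clec12a, an inhibitory lectin (2.91 ± 2.18), Mrc1, the mannose receptor (1.99 ± 1.69), and Clec4a2, an inhibitory lectin with close paralogs (1.79 ± 1.19), had the highest values. The member below 0 was Mrc2 (-3.21), a collagen receptor that fibroblasts also make. Without Ephb4 control bleomycin mouse 1 the median was 0.35, and without the 3 libraries against their sex label it was 1.63. With the macrophage marker covariate it was 0.10. Fcer1g and Mrc1 of this list are among those markers, and Mrc1 is also in the alveolar macrophage signature.

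Surfactant and alveolar type 2 genes kept 12 of 14 members, 11 above 0, with a median of 1.54 (1.34 on the edgeR scale). By comparison, epithelial keratins and junction genes had a median of 0.11 with 11 of 20 above 0, and epithelial markers 0.29 with 5 of 8. Sftpc, which encodes surfactant protein C, had a value of 3.05 ± 3.63 at levels of 36.4, 9.47, 5.66 and 3.32 CPM in Ephb4 control mice after PBS and 48.5, 2.56, 0.229 and 0.25 CPM after bleomycin. In Ephb4-CKO mice it was at 0, 3.49, 28.1, 5.58 and 3.55 CPM after PBS and at 9.56, 0, 71.4 and 8.25 CPM after bleomycin. All 4 groups overlapped, and the error of Sftpc was larger than its value. Sftpb, the surfactant protein B gene, also had an error larger than its value (2.88 ± 3.39). The remaining leading gene, Lyz1 (1.80 ± 1.23), is shared with the macrophage identity genes above. The median of the list was 2.28 without the 3 libraries against their sex label, 0.83 with the number series as a covariate, 0.73 by DESeq2 with the block of table columns and 0.26 in the second block alone.

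The 52 lists between these ends had medians from -2.74 to 0.99, with 39 below 0 and 13 above 0. Elastic fibre and microfibril genes had the lowest of them (-2.74, with 14 of 15 members below 0), followed by collagen VI and other non-fibrillar collagens (-2.58, with all 11 below 0). Small leucine-rich proteoglycans had a median of -3.75 with too few members, 3, to be ordered. Lists whose sign depended on the scale included interferon-stimulated genes (0.26, and -0.27 on the edgeR scale) and CXC chemokines (0.05 and -0.91).

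The 6 genes with the smallest unadjusted p in each direction were taken without regard to the lists. On the negative side these were Lims2, a focal adhesion adaptor (-2.54 ± 0.64), Mrpl53, a mitochondrial ribosomal protein (-1.70 ± 0.53), Itga5, the fibronectin receptor chain (-1.60 ± 0.50), Mbd1, a methyl-CpG binding protein (-1.12 ± 0.30), Disp1, which releases hedgehog ligands (-1.09 ± 0.26), and Slc39a13, a zinc transporter (-0.92 ± 0.27). Disp1 (chr1:183086266-183221522, - strand) was at 7.48, 7.97, 6.16 and 6.39 CPM in Ephb4 control mice after PBS and at 16.1, 15.4, 18.9 and 18.8 CPM after bleomycin. Ephb4-CKO libraries were at 8.75, 8.7, 6.03, 5.82 and 8.41 CPM after PBS and at 8.43, 12.3, 6.63 and 8.03 CPM after bleomycin. The Ephb4 control bleomycin libraries lay above all others for Disp1, Slc39a13 and Itga5 and overlapped with them for the other 3.

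On the positive side were Marco, Tst, a mitochondrial sulfurtransferase (1.81 ± 0.70), Prxl2a (1.22 ± 0.39), the small nucleolar RNA Gm24119 (0.87 ± 0.27), Bnip3l-ps, a processed pseudogene whose reads may come from Bnip3l (0.84 ± 0.23), and Ralgapa2, a subunit of the complex that inactivates Ral GTPases (0.78 ± 0.24). Ralgapa2 (chr2:146239879-146512344, - strand) was at 54.3, 42.8, 36.1 and 41.3 CPM in Ephb4 control mice after PBS and at 16.1, 22.6, 21.6 and 20.9 CPM after bleomycin. Ephb4-CKO libraries were at 47, 61.3, 42.6, 52.6 and 43.7 CPM after PBS and at 31.8, 48.9, 44 and 35 CPM after bleomycin. The Ephb4 control bleomycin libraries lay below the other 13. For Gm24119 the bleomycin libraries lay above every PBS library in Ephb4-CKO mice, and in Ephb4 control mice the groups overlapped. These 12 genes kept the sign of their values under each of the 40 alternative settings tried, 17 of which left out 1 library. They were chosen for a small p in these same libraries, so a kept sign is no independent support.

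**Figure D4:**
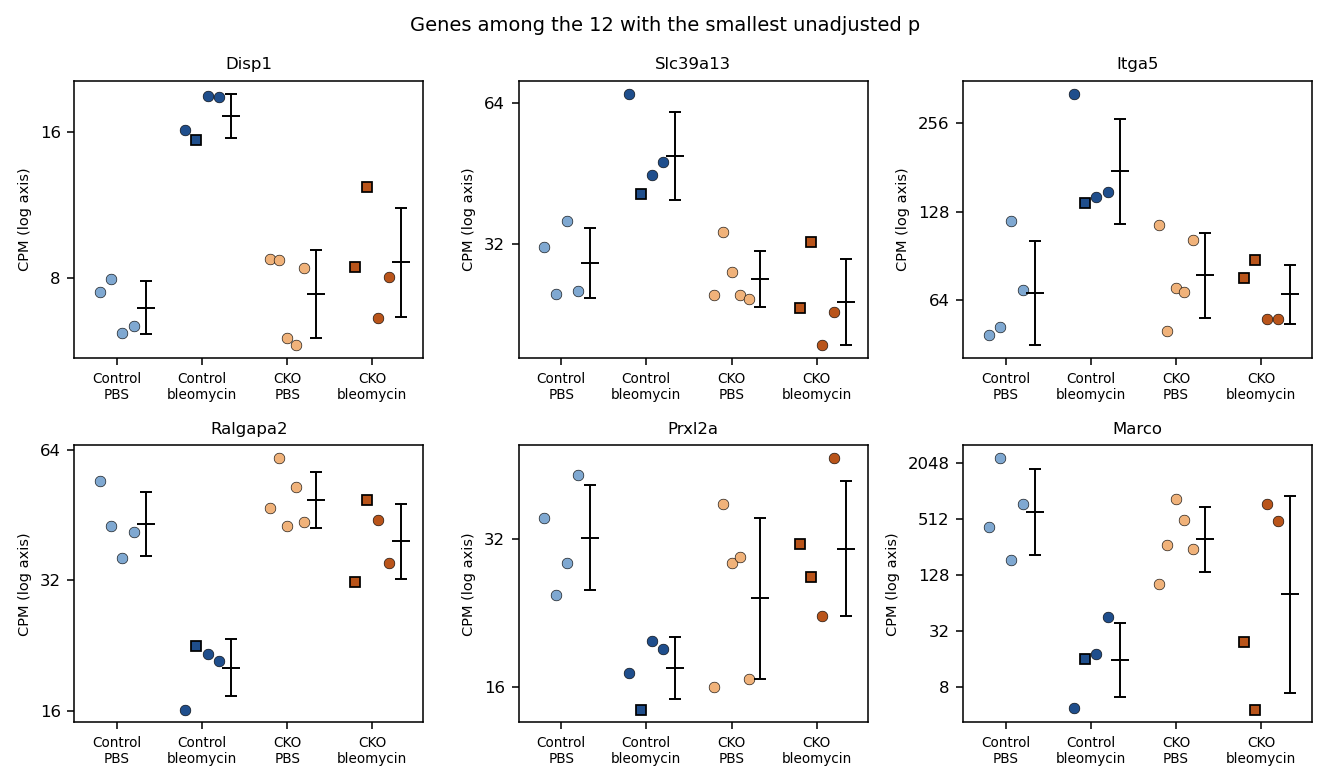
CPM on a logarithmic axis of 6 of the genes with the smallest unadjusted p for the interaction in each of 17 libraries by group, with bars for the geometric mean and the SD of the log2 values. Disp1 lies between 15.4 and 18.9 CPM in Ephb4 control bleomycin libraries and between 5.82 and 12.3 CPM in the others, and Ralgapa2 between 16.1 and 22.6 CPM against 31.8 to 61.3 CPM.

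The medians of the 10 lists at the ends were computed again under each alternative. The lists were chosen for extreme medians in the same libraries, so kept signs add no independent support. Among 400 such medians 2 changed sign, that of the procollagen proteinases with the fibroblast marker covariate (0.15) and that of the Fc gamma receptors and C-type lectins in the first block of table columns (-0.02). The 5 lowest medians were nearest 0 either with the fibroblast marker covariate or within number series 12, with values from -1.14 to 0.15 for the covariate and from -2.73 to -0.36 for series 12. With the number series as a covariate over all 17 libraries, the 5 lowest medians were -4.96, -2.79, -1.96, -2.24 and -1.63, in the order fibrillar collagens, lysyl oxidases, imprinted network, myofibroblast genes and procollagen proteinases. In the same fit the 5 highest medians were between 0.83 and 1.36, and that of the alveolar macrophage signature was 1.04.

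**Figure D5:**
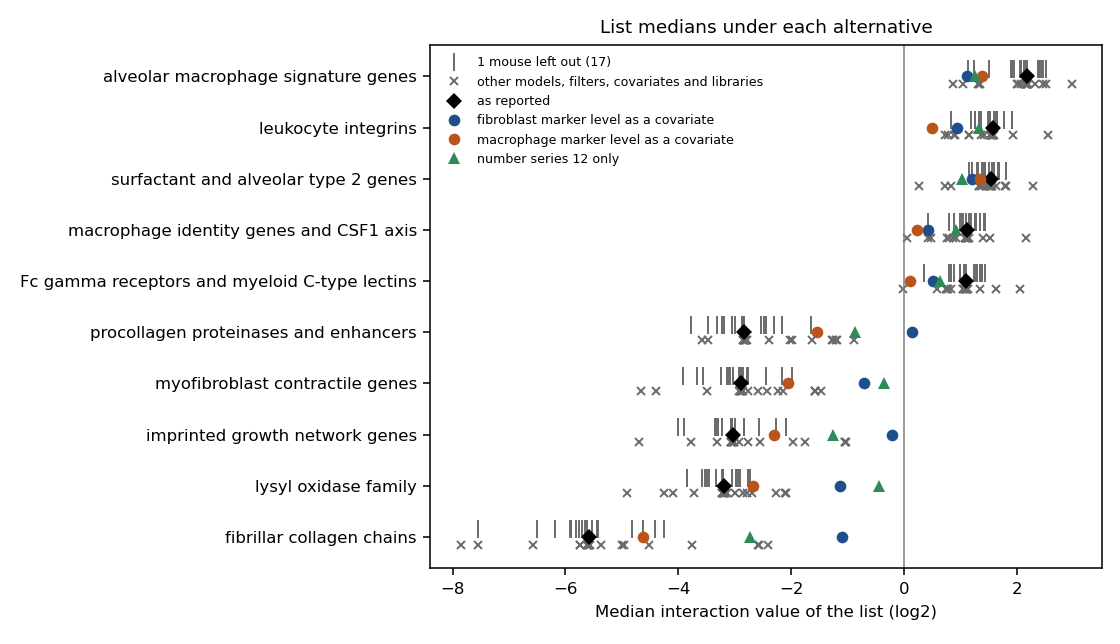
Median interaction value (log2) of the 5 lowest and 5 highest lists under each of 40 alternative settings, with a diamond for the value reported and colours for the fibroblast marker covariate (blue), the macrophage marker covariate (orange) and number series 12 alone (green). Fibrillar collagens range from -7.85 to -1.10 and the alveolar macrophage signature from 0.87 to 2.97.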

How the data were processed

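RNA of 17 cultures was sequenced from stranded total RNA libraries. According to the submitters' processing notes, the authors trimmed reads with cutadapt 1.18 (the study's methods give another version), aligned them with HISAT2 2.1.0 to GRCm38 and deposited estimated counts per gene from StringTie as whole numbers. The labels divide the libraries into 2 sequencing groups, which are not named per library. Groups came from the labels, each library is a separate mouse, and mouse numbers are in accession order. Genes above 10 CPM on library totals in 2 or more libraries were kept, and 20007 genes had no count. With R 4.3.3, edgeR 4.0.16 (TMM, quasi-likelihood test, Benjamini-Hochberg adjustment, 0.05) was fitted to all 4 groups. Interaction values are differences of group means of log2 CPM with a prior count of 2, and the error is the standard error of that difference from the group SDs. Printed CPM are TMM-scaled and not per length. limma 3.58.1 and DESeq2 1.42.0 were alternatives. The tests were also run on simulated counts with a planted interaction, and the outcome is not used here as support for the absence of calls. Depth, from 66540022 to 120554468 counts, places 3 counts at 0.0249 to 0.0451 CPM.

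Named genes were Ephb4, the 3 leading members with a mean of 10 CPM or more in each of the 5 highest and 5 lowest lists, and the 6 genes with the smallest unadjusted p in each direction, and others are named after their values were seen or as markers. The lists and members were chosen with earlier results of these data known. The number series (the first digits of the mouse numbers) and 2 sorted blocks of table columns, of 8 and 9, were read from labels and headers.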

Additional observations from a re-analysis of the deposited data

Results flagged for a closer look

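Single libraries far from the rest of their group were sought in 208 sets of libraries, each 1 group for 1 named gene or list. The measure was the gap to the nearest library over the range of the group, and 19 sets passed the 95% critical value where chance gives about 1 in 20 groups, or 10.4. Of the 19, 11 were Ephb4 control bleomycin mouse 1 in mean log2 CPM or log2 CPM. It was lowest of its group for leukocyte integrins (2.36), macrophage identity genes and the CSF1 axis (4.41), Siglecf (0.05), Itgax (3.78), Itgad (-1.52), Itga4 (1.52), Lyz1 (4.20), Cybb (6.48), Lyz2 (9.77) and Mrc1 (2.69). It was highest for Itga5 (8.34). The genes are not independent, and the sum of the macrophage markers in that group was as low as 1461 CPM.

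In Ephb4 control mice, Krt79 was high after PBS in mouse 2 (7.34), Siglecf low (5.51) and Mbd1 high (5.93) after PBS in mouse 3, and Rian low after bleomycin in mouse 2 (3.18). In Ephb4-CKO mice, PBS mouse 1 was low for Sftpc (-5.54, no count) and Lyz1 (7.52) and high for Mrpl53 (3.52), and bleomycin mouse 2 was far from the others for Fc gamma receptors and C-type lectins (6.40).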

How the results depend on the processing

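No paired analysis was possible because the labels give no replicate numbers, the mouse numbers used are in accession order, and no 2 groups share more than 1 of the identification numbers in the titles. Of 40 alternatives, DESeq2 with the column block as covariate called 1 gene for the interaction (Rnu3a, adjusted p = 6.54e-06, log2 value -36.94). That value lies far outside the range of the interaction values reported, -7.71 to 7.08. The other settings that ran a test called 0, and those that changed only the scale of the values ran none. Genes with an unadjusted p under 0.05 and a positive interaction were 120 by limma voom, 128 by limma-trend, 388 with edgeR's filterByExpr, 680 with no filter, 45 with the number series, 40 with the fibroblast marker and 86 with the macrophage marker as covariate, 50 within series 12, and 86 and 99 within each column block. Genes with a negative interaction were 257 by DESeq2, 252 with the column block added, 258 by limma-trend, 325 with filterByExpr, 658 with no filter, 70, 76 and 87 with the series, fibroblast and macrophage covariates and 347 without the 3 libraries against their sex label. Leaving out each mouse gave 63 to 502 positive and 83 to 742 negative genes, both highest without Ephb4 control PBS mouse 3; Ephb4 control PBS mice 2 and 4, Ephb4 control bleomycin mice 1 and 4 and Ephb4-CKO bleomycin mice 2 and 4 also moved 1 or both numbers over 1.5 times. Without that mouse and Ephb4-CKO PBS mouse 3, the PBS libraries with the highest fibroblast marker level, the numbers were 502 and 615.

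List medians of the fibrillar collagens were -2.57 by DESeq2, -2.58 on the edgeR scale, -2.41 by DESeq2 with the column block, -1.10 with the fibroblast covariate and -2.73 within series 12, where the lysyl oxidases were at -1.14 and -0.45. The imprinted network was at -1.03, -1.05, -1.05, -0.22 and -1.26 in the same order. Myofibroblast genes were at -0.71 with the fibroblast covariate, -0.36 within series 12 and -4.66 in the first column block. Procollagen proteinases were at -1.18 by DESeq2, -1.25 by voom with weights, -1.20 on the edgeR scale, -0.89 with the column block, 0.15 with the fibroblast covariate, -0.87 within series 12 and -1.28 in the second block. With the macrophage covariate and in the second block, integrins were at 0.50 and 2.56, macrophage identity genes at 0.23 and 2.16, and Fc receptors and lectins at 0.10 and 2.05. Each of these lists shares genes with the macrophage markers. The last 2 of these lists were at 0.05 and -0.02 in the first block. Among named genes, Adamts2, Clec12a, Krt79, Loxl1, Mrc1, Pcolce, Peg3 and Sftpb changed sign under 1 or 2 alternatives each. The cause was not tested. Of 400 list medians 370 moved by less than 1 SD. The column-block fits, and the fit without both PBS mice, were chosen after seeing the data. At these depths 3 counts are at most 0.0451 CPM, so depth bears on genes listed at or near 0.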

Other observations

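Further members of the lists stood at an unadjusted p under 0.05 on the negative side, with values and errors in log2 CPM and none past the adjusted threshold. Of 15 kept matrix metalloproteinases and TIMPs, 4 stood there, against 1.57% of all kept genes. They were Timp3, an inhibitor bound to the matrix (-4.52 ± 1.56), Mmp14, a membrane-bound collagenase (-1.11 ± 0.55), Mmp10 (-2.61 ± 2.02) and Mmp13 (-1.98 ± 1.91). Timp3 lay between 479 and 2833 CPM in the Ephb4 control bleomycin libraries and between 5.74 and 334 CPM in the other 13. Mmp10 and Mmp13 overlapped between groups, and their highest levels, 499 and 4005 CPM, were in Ephb4-CKO PBS libraries. Mmp13 lay between 5.78 and 55.2 CPM in the Ephb4 control bleomycin libraries and between 9.34 and 20 CPM after PBS in the same genotype.

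The 21 COPII coat and ER exit genes had a median of -0.13 with 12 below 0 and 3 at an unadjusted p under 0.05. On that side 1.57% of all kept genes stood at such a p. The 17 COPI coat and Arf genes had a median of -0.07 with 10 below 0 and 0 at that p. Sec31a, a subunit of the COPII outer coat, lay between 221 and 278 CPM in the Ephb4 control bleomycin libraries and between 78.9 and 185 CPM elsewhere (-0.78 ± 0.28). Cnih1, a cargo receptor of the endoplasmic reticulum, lay between 61 and 78.1 CPM against 38.9 to 57 CPM (-0.59 ± 0.20). Flna, an actin crosslinker, lay between 2315 and 2989 CPM against 926 to 2279 CPM (-0.89 ± 0.34).

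The 60 replication-dependent histone genes had a median of -0.49 with 59 below 0, and 62 of 76 oxidative phosphorylation subunits were above 0, with a median of 0.16.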
